A study of Mus musculus with 10 samples.

Results

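The proneural basic helix-loop-helix (bHLH) factors examined here are *Neurog1*, *Neurog2*, *Neurod1*, *Neurod2*, *Neurod4*, *Neurod6*, *Nhlh1* and *Nhlh2*. They were chosen by gene symbol and are 8 of the 52227 genes in the count table. All 8 had 10 or more counts in 3 or more libraries, as did 21664 genes in all, which are the genes tested. Their RNA was measured in the cortical hem (CH), a signaling center at the medial edge of the embryonic cortex that secretes Wnt and BMP proteins and produces Cajal-Retzius (CR) cells. The entire CH of 5 wild-type and 5 *Lmx1a-/-* mouse embryos was laser-captured at embryonic day 13.5 (e13.5), and the sections of 1 embryo were pooled into 1 library, so that n counts embryos. The mutants were homozygous for the *drJ* allele, a germline null allele of the LIM-homeodomain factor *Lmx1a*, so that its function was lost in the whole embryo and not only in the CH, and both genotypes were on a mixed C57Bl6, FVB and CD1 background. The comparison asks whether loss of *Lmx1a* was accompanied by another level of these neurogenic factors.

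Proneural bHLH factors bind DNA as dimers with the widely expressed E proteins, at short sites called E boxes, and switch on the genes of neuronal differentiation. In the embryonic cortex the neurogenins *Neurog1* and *Neurog2* act in dividing progenitors, where they also induce Notch ligands that hold neighbouring cells back. The NeuroD factors and the NSCL factors *Nhlh1* and *Nhlh2* follow in cells that are leaving the cell cycle and in young neurons. Id proteins, which lack the basic region, and Hes and Hey repressors, which respond to Notch, oppose them.

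A block of coding bases was aligned in all 8 genes from the start of the longest run shared by *Neurog1* and *Neurog2*. The block encodes the end of the basic region, which contacts DNA, and much of the first helix. It is shown because this region makes the genes 1 family and because it bears on whether reads could be split among them. The 60 aligned coding bases of each gene, read 5′ to 3′ on its coding strand from GRCm38 with GENCODE M21 coding exons, are printed with the 22 bases that are identical in all 8 genes in capitals. They lie at chr13:56251573-56251632 (minus strand) for *Neurog1*, chr3:127634086-127634145 (plus) for *Neurog2*, chr2:79454654-79454713 (minus) for *Neurod1*, chr11:98327890-98327949 (minus) for *Neurod2*, chr10:130271062-130271121 (minus) for *Neurod4*, chr6:55679288-55679347 (minus) for *Neurod6*, chr1:172053992-172054051 (minus) for *Nhlh1* and chr3:102012906-102012965 (plus) for *Nhlh2*.
Neurog1: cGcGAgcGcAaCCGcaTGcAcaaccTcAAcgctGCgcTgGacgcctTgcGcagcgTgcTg
Neurog2: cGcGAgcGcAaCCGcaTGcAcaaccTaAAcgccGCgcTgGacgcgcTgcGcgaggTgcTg
Neurod1: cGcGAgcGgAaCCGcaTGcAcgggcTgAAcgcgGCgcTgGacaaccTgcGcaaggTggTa
Neurod2: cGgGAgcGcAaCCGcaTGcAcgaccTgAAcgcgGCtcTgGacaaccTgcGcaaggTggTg
Neurod4: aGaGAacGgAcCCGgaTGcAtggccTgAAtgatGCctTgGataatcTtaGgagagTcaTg
Neurod6: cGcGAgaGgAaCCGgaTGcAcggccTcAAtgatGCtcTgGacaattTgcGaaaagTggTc
Nhlh1: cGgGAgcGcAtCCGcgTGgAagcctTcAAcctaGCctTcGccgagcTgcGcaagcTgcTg
Nhlh2: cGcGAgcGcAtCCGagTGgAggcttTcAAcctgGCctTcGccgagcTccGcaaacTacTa

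Against *Neurog2*, identity over this block was 88.3% for *Neurog1*, 83.3% for *Neurod2*, 80% for *Neurod1*, 68.3% for *Neurod6* and *Nhlh1*, 60% for *Nhlh2* and 55% for *Neurod4*. The longest run of identical coding bases in any pair was 26 bases, between *Neurog1* and *Neurog2*, followed by 25 bases between *Neurod1* and *Neurod2* and 20 bases between *Nhlh1* and *Nhlh2*. Of the exonic bases of *Neurod1*, 201 of 2729 (7.4%) also belong to an exon of *Cerkl* on the same strand, which had 0 to 15 counts per library, and a long noncoding RNA gene, *Gm26755*, lies across *Neurod1* on the opposite strand.

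Libraries held 19145952 to 36462780 counts on genes. Levels are given as CPM, the counts of a gene relative to the size of its library after scaling by the trimmed mean of M values (TMM). The *Lmx1a* transcript remained in *drJ* mutants, at 114 ± 21 CPM against 71.2 ± 18.2 CPM in wild-type embryos (SD, n = 5 each), a log2 fold change of 0.68 (edgeR quasi-likelihood test, false discovery rate (FDR) = 0.0658). Y-linked transcripts were present in wild-type embryo 1 and all 5 *Lmx1a-/-* embryos (341 to 451 CPM summed over 4 genes) and nearly absent from wild-type embryos 2 to 5, where *Xist* was high, so that apart from 1 library genotype and sex chromosomes cannot be told apart. Wild-type embryo 3 stood apart from the other wild-type embryos. It had the least *Wnt3a* (44.8 CPM against 62.3 to 81.8) and *Wnt2b* (103 CPM against 143 to 183), ligands of the CH, and the least *Ttr* (5.74 CPM against 21.3 to 164), a marker of choroid plexus epithelium. Results that rest on this library are given with and without it.

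None of the 8 factors passed the test between genotypes. With an FDR under 0.1 in edgeR's quasi-likelihood test, 0 were called, where 4.02% of all genes tested were (2.29% lower and 1.72% higher). At an unadjusted p under 0.05 there were 2 (*Neurod4* and *Nhlh1*), where 16.4% of all genes tested were as low. The genotypes overlapped for all 8, against 4.44% of all genes tested without an overlap. The median log2 fold change of the 8 genes was 0.16, with 7 above 0 and 1 below, beside -0.0049 for all genes tested. DESeq2 called 1 of the 8, *Neurod4* (adjusted p = 0.0592), where it called 976 lower and 790 higher of 21664 genes. Without wild-type embryo 3 edgeR called 2, *Neurod4* and *Neurod6*, both higher, where 2.01% of all genes tested were higher and 2.66% lower. The library is bulk RNA, in which fewer cells that express a gene and less RNA per cell cannot be told apart.

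**Figure D1:**
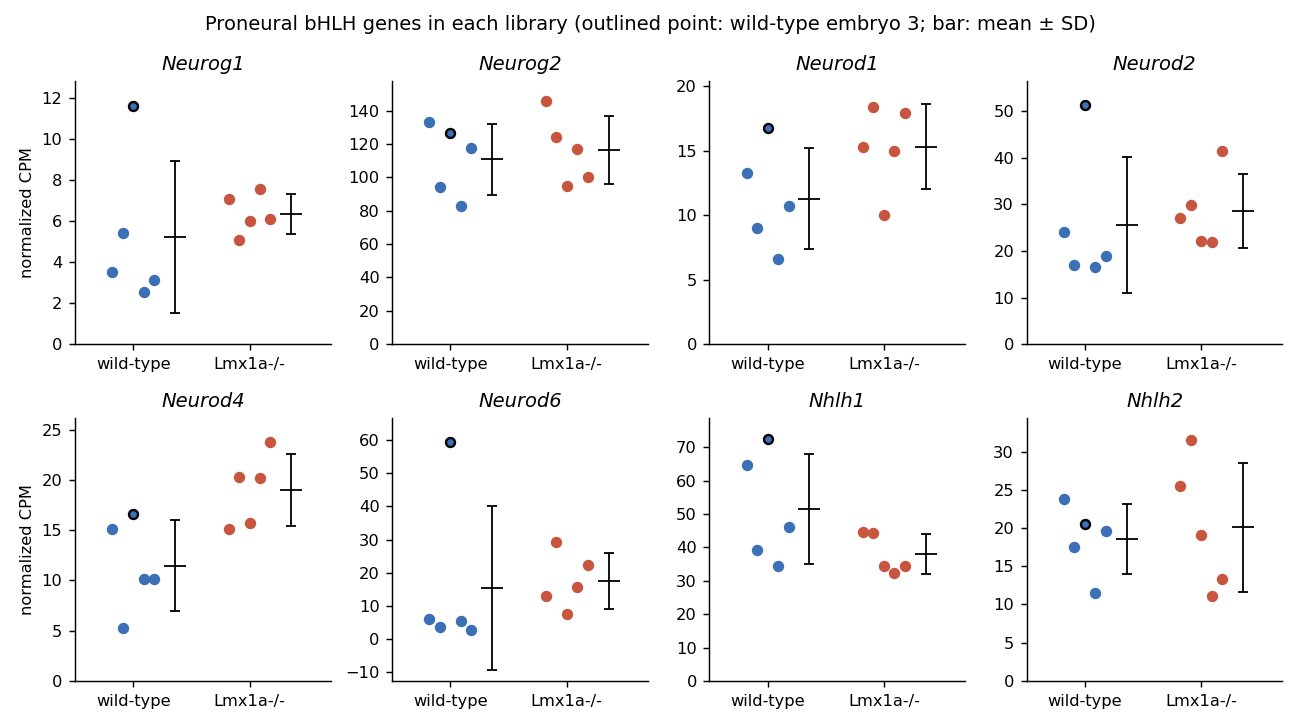
Normalized CPM (linear axis) of the 8 genes in each library, with 1 point per embryo, wild-type in blue and *Lmx1a-/-* in red, and the mean ± SD of 5 embryos as a bar. The genotypes overlap in every panel, and wild-type embryo 3 (outlined) is the highest wild-type library for 6 of the 8 genes, at 59.6 CPM for *Neurod6* where the other 4 are between 2.66 and 5.94.

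The neurogenins come first in the cascade. *Neurog2* (ENSMUSG00000027967, chr3:127633135-127635631 of GRCm38, plus strand) is the main proneural factor of cortical progenitors and was the most abundant of the 8.  Its levels were 133, 94.4, 126, 82.8 and 118 CPM in wild-type embryos 1 to 5 and 146, 124, 95, 117 and 100.4 CPM in *Lmx1a-/-* embryos 1 to 5. The ranges overlapped broadly, and the means were 111 ± 21.4 and 116 ± 20.2 CPM (SD, n = 5 each). Its log2 fold change of 0.07 had a standard error (SE) of 0.14 and a 95% interval of -0.24 to 0.38 (FDR = 0.861), which holds ratios of *Lmx1a-/-* over wild-type between 0.847 and 1.3. This was the narrowest interval of the 8.

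*Neurog1* (ENSMUSG00000048904, chr13:56250478-56252163, minus strand), its close relative, rested on 49 to 394 counts per library. In wild-type embryos 1 to 5 it stood at 3.51, 5.41, 11.6, 2.54 and 3.14 CPM, and in *Lmx1a-/-* embryos at 7.08, 5.05, 6, 7.56 and 6.09 CPM. The highest and the lowest values of the 10 libraries were both wild-type, and the mutants lay close together between them, with an SD of 0.984 CPM against 3.71 CPM in wild-type. For *Neurog1* the log2 fold change was 0.27 (SE 0.36, 95% interval -0.50 to 1.04, FDR = 0.762). Without wild-type embryo 3 it was 0.80 (SE 0.25, 95% interval 0.25 to 1.34, FDR = 0.127).

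The NeuroD factors act in newborn neurons. *Neurod1* (ENSMUSG00000034701, chr2:79452521-79456751, minus strand), which promotes neuronal differentiation and survival, had 13.3, 9.02, 16.8, 6.64 and 10.8 CPM in wild-type embryos 1 to 5. In *Lmx1a-/-* embryos 1 to 5 it had 15.3, 18.4, 10.1, 15 and 18 CPM. Mutants 2 and 5 exceeded the highest wild-type embryo, and the other 3 lay within the wild-type range. With means of 11.3 ± 3.90 and 15.3 ± 3.32 CPM (SD, n = 5 each), the log2 fold change was 0.44 (SE 0.23, 95% interval -0.07 to 0.94, FDR = 0.384).

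*Neurod4* (ENSMUSG00000048015, chr10:130268152-130280240, minus strand), also known as *Math3*, came closest to the threshold. Its levels were 15.2, 5.23, 16.6, 10.2 and 10.2 CPM in the wild-type and 15.1, 20.3, 15.7, 20.2 and 23.8 CPM in the *Lmx1a-/-* embryos. Mutants 2, 4 and 5 were above every wild-type embryo, whereas mutants 1 and 3 were matched by wild-type embryos 1 and 3. The means were 11.5 ± 4.53 and 19 ± 3.6 CPM (SD, n = 5 each). In the edgeR fit *Neurod4* had a log2 fold change of 0.73 (SE 0.26, 95% interval 0.18 to 1.28, unadjusted p = 0.0136, FDR = 0.17). Without wild-type embryo 3 *Neurod4* was called higher, at a log2 fold change of 0.89 (SE 0.25, FDR = 0.0893). That embryo had the highest wild-type level of *Neurod4*, so the fit without it is no independent test.

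*Neurod2* and *Neurod6* mark differentiating excitatory neurons of the cortex, and both had 1 wild-type library far above the rest. For *Neurod2* (ENSMUSG00000038255, chr11:98325415-98329648, minus strand), the values were 24.2, 17.1, 51.3, 16.6 and 18.9 CPM in the wild-type and 27.1, 29.8, 22.2, 22 and 41.4 CPM in the *Lmx1a-/-* embryos. For *Neurod6* (ENSMUSG00000037984, chr6:55677822-55681263, minus strand), they were 5.94, 3.74, 59.6, 5.45 and 2.66 CPM in the wild-type and 12.9, 29.4, 7.49, 15.7 and 22.3 CPM in the *Lmx1a-/-* embryos. Wild-type embryo 3 was the highest of all 10 libraries for both genes, and every *Lmx1a-/-* embryo was above the other 4 wild-type embryos for *Neurod6*. Over all libraries the log2 fold change of *Neurod2* was 0.15 (SE 0.30, 95% interval -0.49 to 0.79, FDR = 0.853) and that of *Neurod6* was 0.16 (SE 0.74, 95% interval -1.42 to 1.75, FDR = 0.942).

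The NSCL factors are small bHLH proteins of young neurons that have just left the cell cycle. *Nhlh1* (ENSMUSG00000051251, chr1:172052292-172057573, minus strand) had 64.8, 39.2, 72.4, 34.5 and 46.3 CPM in wild-type embryos 1 to 5 and 44.7, 44.2, 34.5, 32.4 and 34.5 CPM in *Lmx1a-/-* embryos. Wild-type embryos 1, 3 and 5 lay above every mutant, and wild-type embryo 4 lay at the level of mutants 3 and 5. The means were 51.4 ± 16.5 and 38 ± 5.91 CPM (SD, n = 5 each). *Nhlh1* was the only gene of the family with a log2 fold change below 0 in the edgeR fit, at -0.44 (SE 0.19, 95% interval -0.85 to -0.03, unadjusted p = 0.0379, FDR = 0.268). *Nhlh2* (ENSMUSG00000048540, chr3:102010076-102015492, plus strand) was at 23.9, 17.5, 20.6, 11.5 and 19.6 CPM in the wild-type and at 25.5, 31.5, 19.1, 11.1 and 13.4 CPM in the *Lmx1a-/-* embryos. The mutants held both the highest and the lowest value, and the log2 fold change was 0.10 (SE 0.27, 95% interval -0.47 to 0.68, FDR = 0.893).

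Leaving out wild-type embryo 3 moved the members unequally. That embryo stood out by its values, the *Neurod6* level of 59.6 CPM among them. The fit without it is therefore no independent test of *Neurod6*. The same limit holds for every other gene for which that embryo was the highest wild-type library, *Neurog1* and *Neurod4* among them. Of 10 fits that each left out 1 embryo, 5 gave *Neurod6* a log2 fold change below 0. With 4 wild-type and 5 *Lmx1a-/-* embryos, *Neurod6* was at 4.45 ± 1.52 and 17.6 ± 8.49 CPM (SD), a log2 fold change of 1.97 (SE 0.37, 95% interval 1.18 to 2.77, FDR = 0.0124) or a ratio of 3.93. *Neurod6* and *Neurod4* were then called higher, where 2.01% of 21240 genes tested were, and *Neurod6* was the only member whose genotypes did not overlap, as for 6.8% of genes tested. *Neurod2* had a log2 fold change of 0.57 (SE 0.19, FDR = 0.153) and *Neurod1* one of 0.62 (SE 0.22, FDR = 0.177). For *Neurog2* and *Nhlh2* it was 0.12 (SE 0.15) and 0.14 (SE 0.29), and for *Nhlh1* it was -0.29 (SE 0.17, FDR = 0.459).

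**Figure D2:**
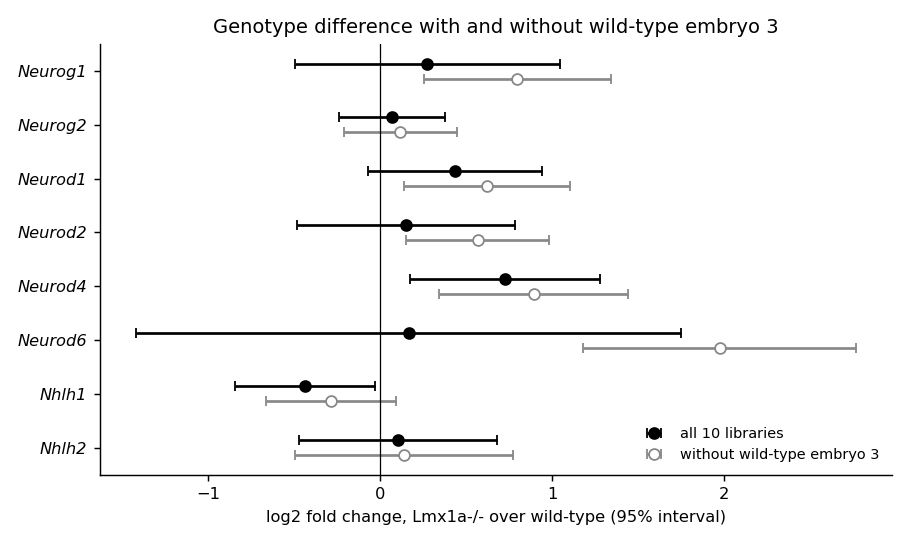
Log2 fold change of *Lmx1a-/-* over wild-type with its 95% interval from edgeR's quasi-likelihood fit, over all 10 libraries (filled) and without wild-type embryo 3 (open). The interval of *Neurod6* spans -1.42 to 1.75 with all libraries and 1.18 to 2.77 without that embryo, while *Neurog2* stays at 0.07 and 0.12.

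The spread between wild-type embryos rested in part on embryo 3. With all libraries the ratio of the highest to the lowest library was larger in wild-type than in *Lmx1a-/-* embryos for 7 of the 8 genes, and without wild-type embryo 3 for 5. For *Neurod6* it was 22.4 with that embryo and 2.23 without it, against 3.92 in *Lmx1a-/-* CH, and for *Neurod2* 3.09 and 1.45, against 1.88, so that both turned round. For *Neurog1* it was 4.56 and 2.13, against 1.5, and for *Neurod4* 3.17 and 2.9, against 1.57. Wild-type embryo 3 was the highest wild-type library for 6 genes and wild-type embryo 4, which had the lowest summed level of 11 neuronal markers (588 CPM against 772 to 915.5), was the lowest for 6. Embryo 4 also had the lowest wild-type sum of progenitor markers (3358 CPM against 4220 to 4458) and of E proteins (2183 CPM against 2262 to 2602). It was not the lowest for the markers of CR cells, CH or choroid plexus. *Nhlh2* had ratios of 2.08 in wild-type, with or without embryo 3, and 2.85 in *Lmx1a-/-* CH. The share of all genes tested with a wider ratio in wild-type was not computed. The counts of 7 and 5 are therefore not shown to be particular to these 8 genes.

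Levels of different genes were compared per length, as normalized CPM per kb of exon. *Neurog2* stood first in both genotypes, at 49.8 ± 9.61 in wild-type and 52.3 ± 9.05 CPM per kb in *Lmx1a-/-* CH, and *Nhlh1* second, at 20.9 ± 6.68 and 15.4 ± 2.4 CPM per kb (SD, n = 5 each). In wild-type CH *Neurod2* (8.14), *Neurod6* (7.2), *Neurod1* (4.14), *Nhlh2* (3.43), *Neurod4* (3.43) and *Neurog1* (3.11 CPM per kb) followed. Without wild-type embryo 3 *Neurod6* came last instead, at 2.07 ± 0.706 CPM per kb (SD, n = 4), after *Neurod2* (6.1), *Neurod1* (3.63), *Nhlh2* (3.34), *Neurod4* (3.04) and *Neurog1* (2.17 CPM per kb). In *Lmx1a-/-* CH the order was *Neurod2* (9.07), *Neurod6* (8.16), *Neurod4* (5.68), *Neurod1* (5.62), *Neurog1* (3.77) and *Nhlh2* (3.71 CPM per kb). With all libraries only *Neurog2* and *Nhlh1* were neighbours that did not overlap, in wild-type and in *Lmx1a-/-* CH alike, and without wild-type embryo 3 *Nhlh1* and *Neurod2*, and *Neurod2* and *Neurod1*, did not overlap in wild-type CH either. *Neurog2* made up 51.6 ± 8.17% of the summed level of the 8 genes per kb in wild-type (55.2 ± 1.95% without embryo 3) and 50.4 ± 4.81% in *Lmx1a-/-* CH. *Neurod6* made up 18.2% of it in wild-type embryo 3, where *Neurog2* had its lowest share, 37.3%.

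**Figure D3:**
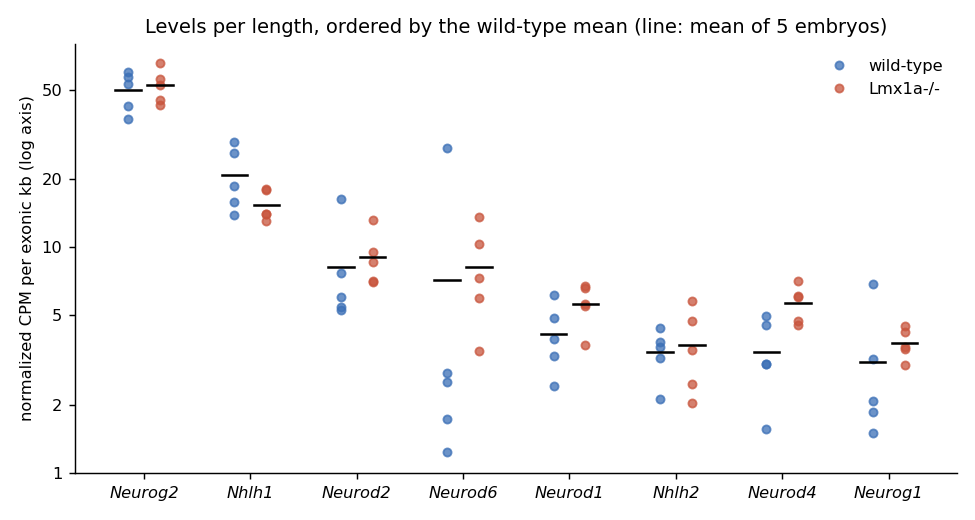
Normalized CPM per kb of exon (log axis) for the 8 genes, ordered by the wild-type mean, with 1 point per embryo (wild-type blue, *Lmx1a-/-* red) and the mean of 5 embryos as a line. *Neurog2* stands above *Nhlh1* in both genotypes without overlap, and the wild-type mean of *Neurod6* (7.2) lies above 4 of its 5 libraries.

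Ratios between members within a library do not depend on how libraries are scaled. These ratios were taken after the values were seen and are given without a test. *Nhlh1* over *Neurog2* was 0.487, 0.416, 0.573, 0.416 and 0.394 in wild-type embryos 1 to 5 and 0.307, 0.357, 0.363, 0.277 and 0.343 in *Lmx1a-/-* embryos, so that every mutant lay below every wild-type embryo. Of the 7 members set against *Neurog2* it was the only 1 without an overlap, beside 1.63% of all genes tested. Set against *Nhlh1*, 3 of 7 members, *Neurog2*, *Neurod1* and *Neurod4*, were higher in every mutant, beside 3.65% of all genes tested. *Neurod1* over *Nhlh1* was 0.218 ± 0.0184 in wild-type and 0.407 ± 0.0915 in *Lmx1a-/-* CH (SD, n = 5 each), and *Neurod4* over *Nhlh1* was 0.222 ± 0.0579 and 0.513 ± 0.142. *Nhlh1* made up 19.3% to 23.4% of the summed level of the 8 genes per kb in wild-type embryos and 13.4% to 16.9% in mutants. Wild-type embryo 3 did not decide these ratios. It lay at the top of the wild-type range for *Nhlh1* over *Neurog2*, and so at the bottom for the inverse ratio, away from the mutants. For *Neurod1* and *Neurod4* over *Nhlh1* it lay within the range of the other wild-type embryos. The ratios share *Nhlh1* and are not independent of each other.

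**Figure D4:**
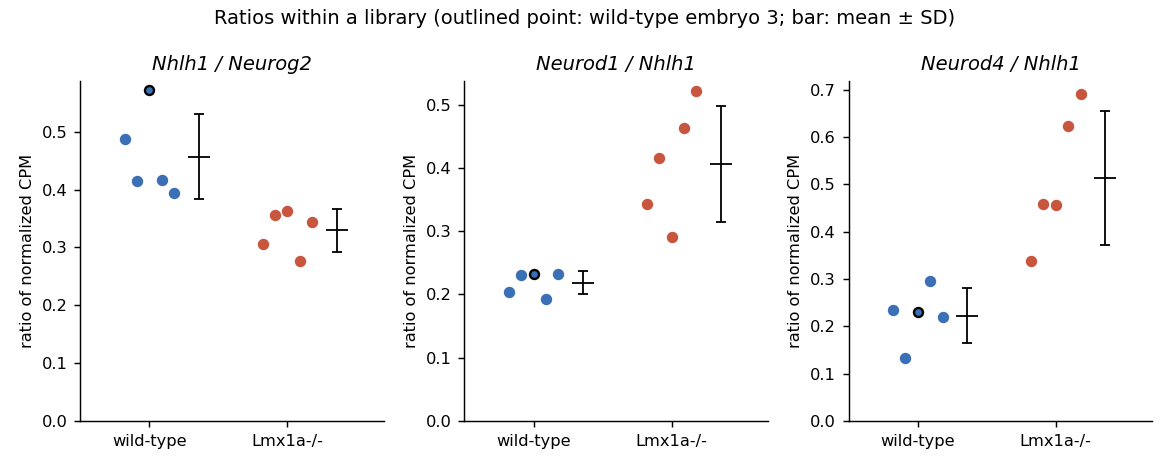
Ratio of normalized CPM within a library (linear axis from 0) for *Nhlh1* over *Neurog2*, *Neurod1* over *Nhlh1* and *Neurod4* over *Nhlh1*, with 1 point per embryo, wild-type embryo 3 outlined, and the mean ± SD of 5 embryos as a bar. In all 3 panels the genotypes do not overlap, with means of 0.457 and 0.329, 0.218 and 0.407, and 0.222 and 0.513 in wild-type and *Lmx1a-/-* CH.

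Across embryos, the members did not all vary together. Correlations were taken of log2 CPM deviations from the genotype mean over the 10 libraries, which share depth and dissection, and they are descriptions. *Neurod2* and *Neurod6* had the highest Pearson's r (0.886, and 0.578 without wild-type embryo 3), followed by *Neurog2* and *Nhlh1* (0.845, and 0.868 without it). At the other end were *Neurod4* and *Nhlh2* (0.043) and *Neurog1* and *Nhlh2* (0.081). *Neurog1* and *Neurod6* had r = 0.706, which became -0.288 without wild-type embryo 3.

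Among 16716 genes with a mean of at least 1 CPM, the genes most like *Neurog2* by this measure were *Mpped2* (r = 0.961), *Lhx2* (r = 0.950) and *5930403N24Rik* (r = 0.942). *Lhx2* is the selector gene of the cortical neuroepithelium. *Nhlh1* was most like *Eomes* (r = 0.960), which encodes Tbr2, a factor of intermediate progenitors and CR cells, *Zbtb18* (r = 0.954) and *Lhx2* (r = 0.947). For *Neurod1* these were *Pnma2* (r = 0.985), *Kif3c* (r = 0.973) and *Peg13* (r = 0.971), and for *Neurod2* they were *Kcnn2* (r = 0.981), *Ttl* (r = 0.953) and *Ap3b2* (r = 0.948). *Neurod4* was most like *Slc35b2* (r = 0.926), *Pkd1l3* (r = 0.925) and *Syt6* (r = 0.917), and *Nhlh2* most like *Gm8983* (r = 0.971), *Gm3226* (r = 0.963) and *Dysf* (r = 0.960). *Neurog1* was most like *Plpp3* (r = 0.938), *Prim1* (r = 0.922) and *1110032F04Rik* (r = 0.910), which without wild-type embryo 3 had r = 0.914, 0.822 and 0.622. *Neurod6* was most like *Abi3bp* (r = 0.957), *Rwdd3* (r = 0.947) and *Adamtsl3* (r = 0.945), with r = 0.811, 0.940 and 0.768 without that embryo. For the other members the r of each gene named stayed between 0.894 and 0.980 without it. These genes are the highest of 16716 correlations over 10 libraries, where some high values arise by chance. How high r would be by chance was not computed.

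E boxes were searched in the RefSeq promoters of the members, 250 bases before to 50 after a start site on GRCm38.p6, because the factors are known to act on such sites and on each other's genes. RefSeq promoters were found for all 8 genes, and that of *Neurog2* held no CANNTG E box on either strand. The NeuroD-type E box CAGATG, searched on both strands, was in the promoters of 3 members, *Neurod2*, *Nhlh1* and *Nhlh2*, and in 17.15% of all 32851 RefSeq promoters. CATATG, another form of the same CANNTG core, was in those of *Neurod1* and *Neurod2* and in 3.91% of all. The sites are printed with their flanks and with the E box in capitals, *Neurod2* with both. They start at position -118 (*Neurod2*, chr11:98329746-98329775, minus strand), -203 (*Nhlh1*, chr1:172057782-172057811, minus) and -127 (*Nhlh2*, chr3:102010006-102010035, plus) from the start site for CAGATG, and at -242 (*Neurod1*, chr2:79456861-79456886, minus) and -17 (*Neurod2*, chr11:98329645-98329674, minus) for CATATG.
Neurod2 CAGATG: agtagagagtgaCAGATGgcggcgggtccc
Nhlh1 CAGATG: atgcatggagaaCAGATGtccctgctcccc
Nhlh2 CAGATG: cccacactgtgaCAGATGtcaagtccaatt
Neurod1 CATATG: gggaagacCATATGgcgcatgccggg
Neurod2 CATATG: acgtgccaagccCATATGgcctggcataga
A match is a description of the sequence, and the count table holds no measurement of binding.

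None of the partners of the factors passed the test. All 3 E proteins, *Tcf3*, *Tcf4* and *Tcf12*, were tested, with log2 fold changes of -0.08 (SE 0.08), 0.15 (SE 0.08) and -0.03 (SE 0.08), the last being their median. Their summed level was 2183 to 2602 CPM in wild-type and 2479 to 2826 CPM in *Lmx1a-/-* embryos.

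Among other neural bHLH activators, none of *Tal2* (log2 fold change 1.21, FDR = 0.112), *Bhlhe22* (0.82, FDR = 0.193, and 1.12 with FDR = 0.0544 without wild-type embryo 3), *Atoh8* (-0.58, FDR = 0.367) and *Olig2* (0.81, FDR = 0.71) passed the test with all libraries. *Neurog3*, the third neurogenin, had 0 counts in all libraries.

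The inhibitors moved in both directions. Of 10 listed, 9 passed the filter, 2 were lower and 1 was higher, with a median log2 fold change of -0.08. *Id1* and *Id2*, which sequester E proteins and respond to BMP signals, fell from 51.5 ± 14.6 to 27.7 ± 7.82 CPM (log2 fold change -0.89, SE 0.22, FDR = 0.0578) and from 54.4 ± 8.61 to 36.6 ± 6.08 CPM (log2 fold change -0.57, SE 0.13, FDR = 0.0452; SD, n = 5 each). For *Id1* the FDR was 0.153 with the embryo number as a block, and its call was lost without wild-type embryo 1, 2 or 5 or mutant 2, 4 or 5 (FDR up to 0.143). That of *Id2* was lost without wild-type embryo 2 (FDR = 0.106) or mutant 5 (FDR = 0.107). *Hey1*, a Notch-responsive repressor, had 70.2, 69.5, 91.2, 62.6 and 69.8 CPM in wild-type embryos 1 to 5 and 106, 119, 123, 111 and 100.5 CPM in the *Lmx1a-/-* embryos, with no overlap (log2 fold change 0.62, SE 0.10, FDR = 0.00656). *Id4*, an Id protein of cortical progenitors, had 136 ± 71.9 and 258 ± 69.6 CPM (log2 fold change 0.93, SE 0.29, FDR = 0.118), and a log2 fold change of 1.3 (SE 0.20, FDR = 0.00411) without wild-type embryo 3.

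Of 19 genes known as targets or readouts of proneural factors, all passed the filter, 1 was lower and 0 were higher, with a median log2 fold change of -0.09. *Dll3*, a divergent Notch ligand, was at 8.32, 4.01, 6.79, 4.67 and 6.8 CPM in the wild-type and at 3.59, 2.01, 1.64, 2.11 and 4.21 CPM in the *Lmx1a-/-* embryos (log2 fold change -1.17, SE 0.30, FDR = 0.0679). The call was lost without wild-type embryo 1 or 5 or mutant 2 or 4 (FDR up to 0.155). *Dll1*, the ligand that *Neurog2* induces, had all mutants (74.7 to 82.2 CPM) above all wild-type embryos (50.5 to 74.1 CPM) but did not pass the test (log2 fold change 0.28, SE 0.11, FDR = 0.207). *Eomes* had 89 ± 23.4 and 62.5 ± 9.45 CPM (log2 fold change -0.51, SE 0.16, FDR = 0.129), and *Cbfa2t2*, a corepressor, 104 ± 3.5 and 93 ± 2.72 CPM (log2 fold change -0.16, SE 0.06, FDR = 0.228; SD, n = 5 each). In the authors' own edgeR analysis of these libraries *Eomes* (Tbr2) was called lower. They also reported less Tbr2 in the mutant CH by immunostaining, and less of its RNA after *Lmx1a* knockdown. *Rnd2*, which acts in neuron migration and was picked after its values were seen, had a log2 fold change of 0.54 (FDR = 0.349), and 0.83 (FDR = 0.0783) without wild-type embryo 3. That embryo was the highest wild-type library for *Rnd2*, *Id4* and *Bhlhe22*, so the fits without it are no independent tests of these genes. The calls of *Id1*, *Id2*, *Hey1* and *Dll3* were all lost with *Xist* or the choroid plexus list as a covariate, and in the 6 libraries with Y-linked transcripts. With the list of neuronal markers as a covariate those of *Id1* (FDR = 0.208) and *Id2* (FDR = 0.184) were lost too. Those of *Hey1* and *Dll3* were kept.

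**Figure D5:**
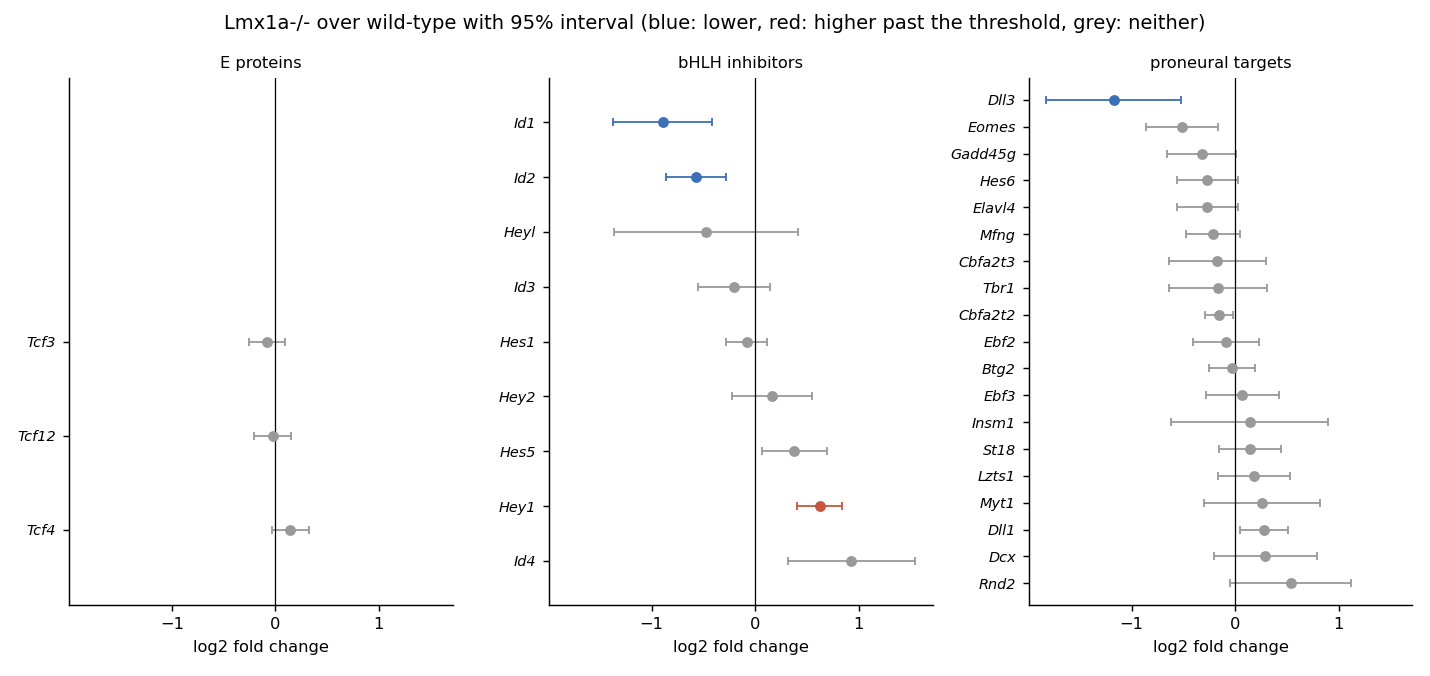
Log2 fold change of *Lmx1a-/-* over wild-type with its 95% interval for the tested genes of 3 lists: E proteins, bHLH inhibitors and proneural targets. *Id1*, *Id2* and *Dll3* were lower (blue) and *Hey1* was higher (red) at an FDR under 0.1, and the E proteins lie within 0.15 of 0.

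Markers of the cells that the CH dissection could hold moved beside these values. Of 11 neuronal markers 0 were called, with a median log2 fold change of 0.71 and a summed level of 588 to 915 CPM in wild-type and 667 to 997.5 CPM in *Lmx1a-/-* embryos. The log2 fold change was above 0 for 9 of them and below 0 for 2. *Map2* held much of the sum, at 612 and 598 CPM (log2 fold change -0.03). Of 8 progenitor markers only *Vim* was higher (log2 fold change 0.87, FDR = 0.00183), and the median log2 fold change was 0.23. The proliferation markers *Mki67* and *Top2a* had log2 fold changes of 0.01 (SE 0.10) and 0.12 (SE 0.10). Of 6 CR cell markers tested 3 were lower (*Reln*, *Trp73* and *Lhx1*) and *Lhx5* was higher, with a median log2 fold change of -0.95 and summed levels of 240 to 446 CPM in wild-type and 158 to 224 CPM in mutant embryos, and the CR marker *Calb2* had at most 14 counts. Of 7 CH markers 3 were lower (*Wnt2b*, *Wnt5a* and *Bmp7*) and *Lmx1a* was higher, with a median log2 fold change of -0.45.

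In the lists of neighbouring tissue, with summed levels given for wild-type and then for *Lmx1a-/-* embryos, *Emx2* was higher among 4 genes of cortical and hippocampal neuroepithelium (272 to 565 and 496 to 705 CPM summed), *Fezf2* among 5 of glutamatergic projection neurons (320 to 422 and 410 to 515 CPM) and *Dlx5* among 5 of GABAergic ventral neurons (19.6 to 59.2 and 32.1 to 162 CPM). Among 7 choroid plexus genes tested *Ttr* was lower (86.3 to 428 and 118 to 185 CPM summed), with *Kl* at no more than 11 counts. *Lum* and *Dcn* were lower among 5 genes of meninges and mesenchyme (188 to 637 and 163 to 348 CPM). None was called among 3 endothelial genes (11.1 to 43.3 and 12.8 to 30.8 CPM), 7 red blood cell genes (526 to 1295 and 195 to 484 CPM) and 4 microglial genes (10.1 to 21.1 and 10.2 to 21.7 CPM). The part of these cells in the values of the bHLH genes was not tested.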

How the data were processed

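The authors' reads were paired-end. Trimmomatic trimming, STAR 2.7.1a alignment to GRCm38 and HTSeq 0.11.2 counting per Ensembl gene gave the raw counts that the authors deposited. The strand setting is not given in the sources used here, so reads of *Neurod1* and of the gene across it on the other strand may not be separated. Of 52508 deposited rows, 281 exact repeats were dropped. Libraries of SMARTER-amplified RNA held 19145952 to 36462780 counts. Genotypes and embryo numbers come from the labels.

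Genes with 10 or more counts in 3 or more libraries were kept, scaled by TMM and tested with edgeR 4.0.16 (quasi-likelihood, R 4.3.3), without covariates, and p was adjusted by Benjamini-Hochberg over all genes tested (threshold, FDR under 0.1). The SE is the log2 fold change divided by the square root of F. Correlations used log2(CPM + 0.5). Replicates are separate embryos, so p sets the difference between genotypes against the spread between embryos. The authors describe the controls as littermates, but the labels name no litters, and litter was not in the fit.

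The members and lists were chosen with earlier results of these data known. Named genes are all members, the 4 or fewer list genes ranked first by p, and the 3 genes most like each member. Alternatives were other scaling, filters, tests (DESeq2 1.42.0 among them), dispersions and covariates, the embryo number as a block, and each embryo left out. Some genes that the rule names are left out.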

Additional observations from a re-analysis of the deposited data

Results flagged for a closer look

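In wild-type CH, *Neurod6* had 59.6 CPM in embryo 3, far from the 2.66 to 5.94 CPM of the other 4 embryos by Dixon's test. The same test singled out *Neurod2*, with 51.3 CPM in that embryo and 16.6 to 24.2 CPM in the other 4. These were 2 of 16 sets of 5 embryos examined, and chance alone singles out about 1 in 20. Both values come from the library that also had the lowest *Ttr* and *Wnt3a* of the wild-type embryos.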

How the results depend on the processing

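Of 216 values of the 8 members under 27 other settings, 192 kept their direction and their side of the threshold. The number of members called lower was 0 under every setting. The number called higher was 1 with DESeq2 (*Neurod4*, log2 fold change 0.73, adjusted p = 0.0592), 0 to 2 in the fits without 1 embryo, with 2 only without wild-type embryo 3, and 0 otherwise. *Neurod1* (0.10 to 0.62), *Neurod4* (0.30 to 0.89) and *Nhlh1* (-0.82 to -0.29) kept their sign throughout. With *Xist* as a covariate the log2 fold change was -0.23 for *Neurog2* and -0.35 for *Nhlh2*, and in the 6 libraries with Y-linked transcripts -0.20 and -0.26. With the choroid plexus list as a covariate it was -0.18 for *Neurog1*, -0.12 for *Neurog2*, -0.27 for *Neurod2*, -0.80 for *Neurod6* and -0.18 for *Nhlh2*, and with the neuron list -0.26 for *Neurod2* and -0.21 for *Neurod6*. Without 1 embryo the log2 fold change lay between -0.024 and 0.14 for *Neurog2*, -0.021 and 0.57 for *Neurod2*, -0.12 and 1.97 for *Neurod6*, and -0.12 and 0.26 for *Nhlh2*. The cause of these changes was not tested.

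The genes of the 4 pathway lists were recomputed after seeing the data. Of these, 4 were lower and 1 was higher with the settings of the report. There were 2 lower at an FDR under 0.05 and with the neuron list as a covariate, and 0 with the *Xist* or choroid plexus covariate or in the libraries with Y-linked transcripts. There were 2 higher with no filter, a filter of 1 CPM in 5 libraries, robust dispersions or the newer quasi-likelihood method, 3 with the likelihood ratio or exact test, 4 with DESeq2, and 0 with the *Xist* covariate or in the libraries with Y-linked transcripts. Without 1 embryo, 2 to 6 were lower and 1 to 4 higher.

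The number of an embryo did not pair the genotypes: deviations of same-numbered embryos had correlations between -0.209 and 0.0313, within those of the other pairs (-0.261 to 0.265). With the number as a replicate block, 0 members were called lower and 0 higher, *Neurod6* had a log2 fold change of 1.37 (FDR = 0.472) and *Neurod4* one of 0.80 (FDR = 0.235), and over all genes 353 were lower and 248 higher, where 497 and 373 were without the block. *Neurog1*, with as few as 49 counts in a library, is the member whose values depth limits most.

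Over all genes, DESeq2 called 976 lower and 790 higher, the likelihood ratio test 805 and 555, the exact test 772 and 541, an FDR under 0.05 251 and 197, the *Xist* covariate 27 and 4, the choroid plexus covariate 53 and 66, the neuron covariate 199 and 164, and the libraries with Y-linked transcripts 86 and 44.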
